A study of Mus musculus with 6 samples.

Results

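The 7 mouse Cd209 genes, Cd209a to Cd209g, encode C-type lectins of the DC-SIGN family and were measured by bulk RNA-seq in macrophages of the mammary gland. They were taken by symbol, 7 of the 24061 gene symbols in the count table, and all 7 passed the filter on low counts that 13348 genes passed. The family was chosen with the comparison of Lyve-1+ and Lyve-1- cells already known, because Cd209g and Cd209b were among the largest rises in it. The levels of the members in the Lyve-1+ and Lyve-1- libraries are therefore given as a description, with no test. Age, neighbouring genes and the genes of related pathways did not enter that choice, and tests are given for them. The pathway and marker lists were, however, written with earlier results of these data known, so their counts are not independent of those results.

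The libraries came from FVB/N mice and held CD45+CD11b+F4/80+ cells sorted as Lyve-1+ or Lyve-1-. There were 3 libraries of each subset, each a pool of the inguinal mammary glands of 4 mice after removal of the lymph nodes. Replicate 1 of each subset came from mice 6 weeks of age, and replicates 2 and 3 came from mice 10 weeks of age. The labels give no treatment and no altered allele, and the sorted subsets may each hold more than 1 kind of cell. In such bulk samples, more cells that express a gene and more RNA per cell cannot be told apart.

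DC-SIGN lectins are membrane proteins that bind mannose- and fucose-containing glycans in the presence of calcium. The human protein was described on dendritic cells and tissue macrophages, where it takes up glycosylated ligands and pathogens and alters signals from other receptors. The mouse carries several paralogs in place of the human gene. Cd209a is best known from monocyte-derived dendritic cells, and Cd209b encodes SIGNR1, a lectin of splenic marginal zone and lymph node macrophages that binds dextran, bacterial polysaccharides and complement C1q. Cd209d encodes SIGNR3, which recognises mycobacteria, and Cd209c and Cd209e encode further lectins of the family. The functions of Cd209f and Cd209g are less well described.

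The members lie on chromosome 8 of mm10 and are all protein coding in GENCODE M21. In order along the chromosome they are Cd209a (3743397 to 3748984), Cd209e (3847965 to 3854309), Cd209d (3871824 to 3878555), Cd209b (3917655 to 3926844), Cd209c (3940222 to 3954746), Cd209f (4102787 to 4105835) and Cd209g (4134098 to 4137707). The first 6 are on the minus strand, and Cd209g alone is on the plus strand. The widest gap, 148.0 kb, separates Cd209c from Cd209f. No annotated gene overlaps a member, and the only other gene of the count table between them is Rprl3, a ribozyme gene.

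The RefSeq promoters of the members (GRCm38.p6, 250 bases before to 50 bases after each start) set Cd209f and Cd209g apart. Their 300 bases were 80.9% identical and shared an exact run of 180 bases, whereas the other pairs were 41.7% to 56.1% identical with longest shared runs of 7 to 17 bases. The 150-base stretches below hold part of this shared run in Cd209f and Cd209g, next to the same kind of stretch from Cd209b and Cd209d, which were also high in Lyve-1+ cells, and from Cd209a, which was not. By the GENCODE M21 positions above, the Cd209g stretch lies inside its gene, and those of Cd209f, Cd209d and Cd209b lie partly inside theirs. All of the stretches end just before a RefSeq start, and whether bases inside a gene are transcribed in these cells was not tested. Each is written 5′ to 3′ on the strand of its gene, and capitals mark matches to an AP-1 site (TGACTCA), an ETS core (CCGGAA) and a TATA box (TATAAA) on either strand, so that AP-1 reads TGAGTCA and the ETS core TTCCGG here.
Cd209f, chr8:4105765-4105914, minus strand: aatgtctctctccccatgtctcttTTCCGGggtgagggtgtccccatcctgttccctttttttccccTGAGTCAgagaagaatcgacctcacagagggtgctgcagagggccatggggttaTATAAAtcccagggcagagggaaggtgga
Cd209g, chr8:4134586-4134735, plus strand: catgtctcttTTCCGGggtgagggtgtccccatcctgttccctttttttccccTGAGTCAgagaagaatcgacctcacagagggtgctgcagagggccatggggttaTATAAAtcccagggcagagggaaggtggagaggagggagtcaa
Cd209b, chr8:3926842-3926991, minus strand: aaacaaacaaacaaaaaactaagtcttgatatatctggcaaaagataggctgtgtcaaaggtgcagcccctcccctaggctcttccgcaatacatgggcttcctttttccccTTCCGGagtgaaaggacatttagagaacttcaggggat
Cd209d, chr8:3878500-3878649, minus strand: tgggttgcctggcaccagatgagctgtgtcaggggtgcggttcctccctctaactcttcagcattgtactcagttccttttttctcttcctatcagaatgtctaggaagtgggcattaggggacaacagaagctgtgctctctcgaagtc
Cd209a, chr8:3748985-3749134, minus strand: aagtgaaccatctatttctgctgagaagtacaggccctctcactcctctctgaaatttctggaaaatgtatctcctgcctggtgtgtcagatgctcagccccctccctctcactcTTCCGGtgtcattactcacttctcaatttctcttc

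The AP-1 letters were found in the promoters of Cd209f and Cd209g and in no other member, beside 5.2% of the 32851 promoters in the table. The match began 83 bases before the RefSeq start of Cd209f and 97 bases before that of Cd209g, within the run that the genes share. A TATA box lay on the gene's own strand 29 bases before the start of Cd209f and 43 bases before that of Cd209g, and 13.6% of all promoters held these letters on either strand. The ETS core was found in Cd209a, Cd209b, Cd209e, Cd209f and Cd209g, and in 14.9% of promoters. The letters of a PU.1 core (GAGGAA, 28.3% of promoters) were found in Cd209d, a MAF half-site (TGCTGA, 19.5%) in Cd209a and Cd209d, and a STAT6 palindrome (6.95%) in Cd209e. The motifs were chosen with the sequences in view, both strands were searched, and no matches overlapped in a member. A match is a run of letters and not a measured binding site, and genes so alike in sequence do not give independent matches.

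Cd209f and Cd209g were also alike in their transcripts, which bears on how reads of 50 bases could be assigned. Their main transcripts were 89.4% identical, against 32.4% to 49.5% for the other pairs of members. Over all annotated transcripts of each gene, they shared 646 distinct 50-base words, which is 29.8% of 2168 for Cd209f and 16.6% of 3890 for Cd209g. No other pair of members shared any. The main transcripts are shorter, at 1186 bases for Cd209f and 1169 for Cd209g, and the share within them alone was not computed. How reads that match both genes were counted is not given in the sources used here, so the split between Cd209f and Cd209g is uncertain. Cd209c shared 15.7% of its 50-base words with genes outside the family.

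Total counts ran from 6478007 to 21406839 per library. Lyve1, the gene of the sorted marker, was at 1.43, 6.66 and 7.44 CPM in Lyve-1- replicates 1, 2 and 3 and at 2352, 787.7 and 596.6 CPM in Lyve-1+ replicates 1, 2 and 3, as labelled. CPM are counts scaled to a common TMM-normalised library size. Of the macrophage markers, Emr1, the gene of F4/80, was at 319 ± 63.1 CPM in Lyve-1- and 260 ± 71 in Lyve-1+ libraries (SD, n = 3 each). Libraries differed in counts at 1090 olfactory receptor genes, which macrophages are not known to express. Counts were found at 641 of them in Lyve-1- replicate 3, at 361 in Lyve-1+ replicate 1, at 132 in Lyve-1+ replicate 2 and at 4 to 33 in the others. The density was 2.64, 1.00 and 1.19 counts per kb of exon in the first 3 and at most 0.0935 in the rest, and the results that rest on those libraries are given without them as well.

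In Lyve-1+ libraries, Cd209f, Cd209b, Cd209d and Cd209g were the members with higher levels. For 4 of the 7 genes the lowest Lyve-1+ level exceeded the highest Lyve-1- level, and for Cd209a, Cd209c and Cd209e the subsets overlapped. Of all 13348 genes tested, 7.82% were separated in this way, and since the members were chosen on this contrast nothing is read from the difference. Over all genes the log2 fold change had a median of -0.01.

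Cd209f, the neighbour of Cd209g, was the most abundant member in Lyve-1+ cells. It was at 55.6, 18.03 and 21.1 CPM in Lyve-1- replicates 1, 2 and 3 and at 807, 251.5 and 446.8 CPM in Lyve-1+ replicates 1, 2 and 3. The lowest Lyve-1+ library was thus 4.52 times the highest Lyve-1- library, and within each subset the 6-week library was the highest. The means were 31.6 ± 20.9 and 501.8 ± 282 CPM (SD, n = 3), with a log2 fold change of 3.99 ± 0.55 (SE). This rise was 35th from the top of the genes tested. Cd209f was well counted even in the lower subset, with 662, 203 and 145 counts in the Lyve-1- libraries against 10592, 5249 and 3546 in the Lyve-1+ libraries.

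Cd209b, which encodes SIGNR1, was at 24.1, 9.33 and 8.16 CPM in the Lyve-1- libraries and at 356.2, 157.1 and 195.8 CPM in the Lyve-1+ libraries. Every Lyve-1+ library was at least 6.52 times the highest Lyve-1- library, which was again the 6-week pool. The means were 13.9 ± 8.89 and 236.4 ± 106 CPM (SD, n = 3), and the log2 fold change was 4.08 ± 0.49 (SE), 30th from the top. Its Lyve-1- levels rested on 287, 105 and 56 counts. The 56 counts of replicate 3 were 10 times what the olfactory receptor density of that library would give for the length of Cd209b.

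Cd209g had the widest separation of the family. It was at 3.87, 1.87 and 6.12 CPM in the Lyve-1- libraries, from 46, 21 and 42 counts, and at 292.8, 118.6 and 128.3 CPM in the Lyve-1+ libraries, from 3843, 2475 and 1018 counts. The lowest Lyve-1+ library was 19.4 times the highest Lyve-1- library. The log2 fold change was 5.53 ± 0.54 (SE), 10th from the top among the genes tested. Here the highest Lyve-1- library was replicate 3, the library with counts at most olfactory receptor genes, whose density there would give 9.54 of its 42 Cd209g counts. Without that library the log2 fold change of Cd209g was 5.96.

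Cd209d, which encodes SIGNR3, varied most within the Lyve-1- subset among the 4 genes. It was at 3.78, 3.47 and 16.6 CPM in the Lyve-1- libraries and at 140.7, 40.2 and 94.9 CPM in the Lyve-1+ libraries. The groups did not overlap, but Lyve-1- replicate 3 was 4.8 times the lowest of its subset and came within 2.42 times of Lyve-1+ replicate 2. Its 114 counts there were 46.9 times what the olfactory receptor density would give. The log2 fold change was 3.55 ± 0.69 (SE) with all libraries and 4.66 without Lyve-1- replicate 3.

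**Figure D1:**
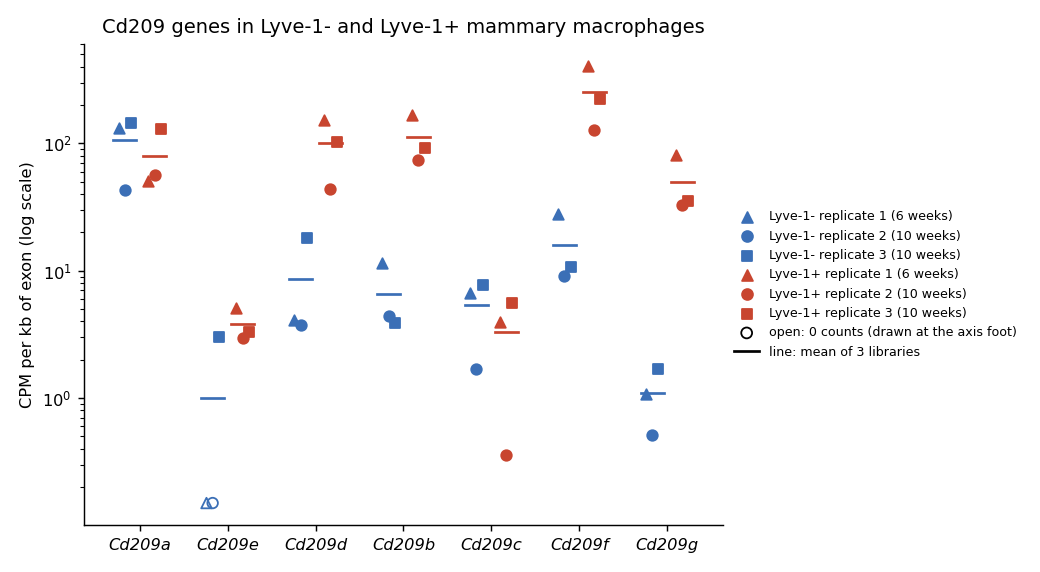
Level of each Cd209 gene in the 6 libraries, in CPM per kb of exon on a log axis, with genes in chromosomal order and lines at the mean of 3 libraries. Red Lyve-1+ points lie above all blue Lyve-1- points for Cd209d, Cd209b, Cd209f and Cd209g, and the colours overlap for Cd209a, Cd209e and Cd209c; open symbols mark libraries with 0 counts.

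Cd209a, the member best known from monocyte-derived dendritic cells, was abundant in both subsets. It was at 208.4, 68.1 and 229.7 CPM in the Lyve-1- libraries and at 80.8, 89.8 and 205.2 CPM in the Lyve-1+ libraries. The subsets overlapped throughout, with the lowest and the highest library both Lyve-1-. The means were 168.7 ± 87.8 and 125.3 ± 69.4 CPM (SD, n = 3), and the log2 fold change of -0.43 ± 0.47 (SE) was within 1 standard error of 0. Between same-numbered libraries the log2 ratio of Lyve-1+ to Lyve-1- was -1.37 at 6 weeks and 0.40 and -0.16 in the 10-week pools.

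Cd209c was low and uneven in both subsets, at 13.4, 3.38 and 15.3 CPM in the Lyve-1- libraries and 7.92, 0.719 and 11.1 CPM in the Lyve-1+ libraries. Replicate 2 was the lowest library of each subset, and the Lyve-1+ libraries differed among themselves by 15.4 times. The log2 fold change was -0.70 ± 1.27 (SE), and it was -0.18 without Lyve-1+ replicate 2, where the gene had 15 counts.

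Cd209e was the lowest member in Lyve-1- cells and had 0 counts in Lyve-1- replicates 1 and 2, which allows up to 0.252 and 0.267 CPM. It had 37 counts in Lyve-1- replicate 3, or 5.39 CPM, and 9.22, 5.37 and 5.92 CPM in the Lyve-1+ libraries. Against a floor of 3 counts per library, Cd209e was at least 36.6-fold and 20.1-fold higher in the Lyve-1+ library of replicates 1 and 2. In replicate 3, however, the Lyve-1- library was at 91.1% of the Lyve-1+ library. The overlap of the subsets thus rests on Lyve-1- replicate 3, whose 37 counts were 7.77 times those at the olfactory receptor density. The part of that background in the Cd209e counts was not tested.

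**Figure D2:**
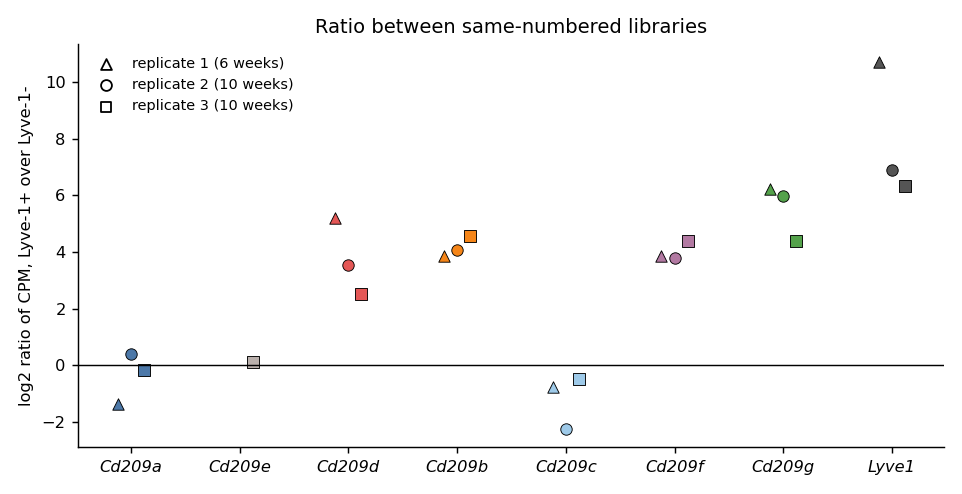
Log2 ratio of CPM in the Lyve-1+ library over the Lyve-1- library of the same replicate number, for each Cd209 gene and for Lyve1. Cd209b and Cd209f stay between 3.8 and 4.58 in all 3 replicates, Cd209d runs from 2.51 to 5.22, Cd209a and Cd209c lie near or below 0, and Cd209e is drawn for replicate 3 alone because its other Lyve-1- libraries had 0 counts.

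To compare members with each other, levels were divided by the length covered by all annotated exons of a gene. For Cd209g this was 3610 bases against 1169 in its main transcript, and for Cd209f 1988 against 1186. By main transcript the level of Cd209g per kb would be higher, so its place, share and ratios below depend on this choice. In Lyve-1+ cells the order of means was Cd209f (252 ± 142 CPM per kb), Cd209b (112 ± 49.9), Cd209d (100 ± 54.8), Cd209a (79.1 ± 43.8), Cd209g (49.8 ± 27.1), Cd209e (3.79 ± 1.16) and Cd209c (3.29 ± 2.66; SD, n = 3 each). The ranges of mean ± SD of neighbours in this order overlapped, apart from the step between Cd209g and Cd209e. In Lyve-1- cells Cd209a stood first at 107 ± 55.5 CPM per kb, clear of the next, Cd209f, at 15.9 ± 10.5. Cd209f, Cd209d (8.66 ± 8.17), Cd209b (6.56 ± 4.2) and Cd209c (5.35 ± 3.21) each overlapped the next in the same sense, as did Cd209g (1.09 ± 0.59) and Cd209e (0.998 ± 1.73). Among all genes tested, the mean level of Cd209f per kb stood at the 99.1 percentile in Lyve-1+ cells and at 80.5 in Lyve-1- cells. Cd209b stood at 97.7 and 61, Cd209d at 97.5 and 68, and Cd209g at 94.1 and 19.6. By this exon length Cd209g was among the lower genes in Lyve-1- cells, whereas Cd209a, at 96.6 and 97.5, was among the higher genes in both subsets. Cd209c stood at 43.2 and 55.6, and Cd209e at 46.5 and 18.

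The make-up of the family differed between the subsets, with Cd209a the main transcript in Lyve-1- cells and Cd209f in Lyve-1+ cells. Summed over the members, the level was 182.9, 62.5 and 190.1 CPM per kb in the Lyve-1- libraries and 868.7, 337.4 and 594.6 in the Lyve-1+ libraries. Cd209a made up 72.0%, 68.8% and 76.4% of this sum in the Lyve-1- libraries, but 5.87%, 16.8% and 21.8% in the Lyve-1+ libraries. Cd209f, in turn, made up 11.8% ± 5.39 of the sum in Lyve-1- and 40.7% ± 5.25 in Lyve-1+ libraries (SD, n = 3). The shares of Cd209b were 5.11% ± 2.7 and 19.0% ± 3.24, those of Cd209d 5.93% ± 3.63 and 16.0% ± 2.63, and those of Cd209g 0.768% ± 0.162 and 8.35% ± 2.07. Cd209c and Cd209e stayed small in Lyve-1+ cells, with a mean share of 0.499% and 0.675%.

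**Figure D3:**
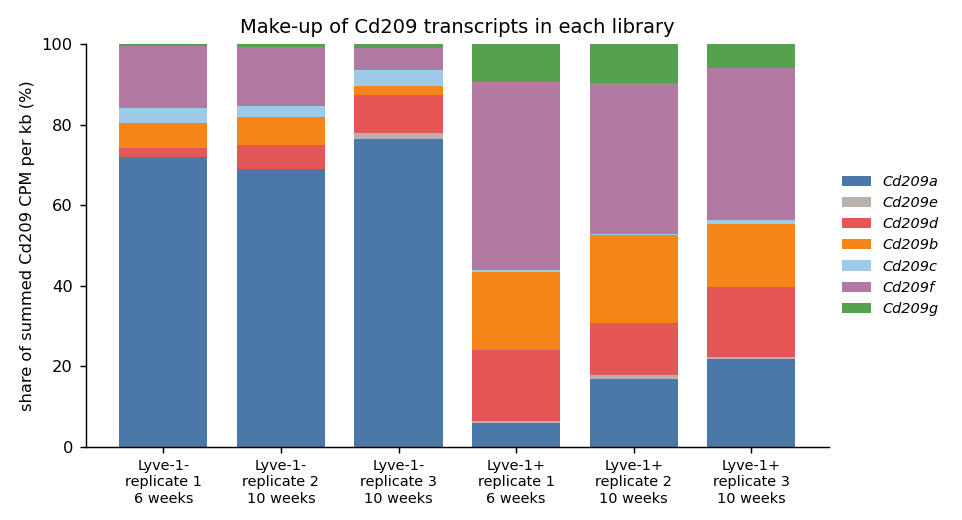
Share of each Cd209 gene in the summed CPM per kb of the family, in percent, with 1 bar per library. Cd209a fills 68.8% to 76.4% of the Lyve-1- bars and 5.87% to 21.8% of the Lyve-1+ bars, where Cd209f is the largest part.

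The genes that were high in Lyve-1+ cells remained detectable in Lyve-1- cells. Relative to the Lyve-1+ library of the same number, the Lyve-1- level of Cd209f was 6.89%, 7.17% and 4.73%, and that of Cd209b was 6.77%, 5.94% and 4.17%. For Cd209g it was 1.32%, 1.57% and 4.77%, and for Cd209d 2.69%, 8.63% and 17.5%. Lyve1 itself was at 0.0607%, 0.846% and 1.25%. Residual Cd209f and Cd209b were thus several times above the residual of the sorted marker in every replicate. The part of cells from the other gate in these residual levels was not tested.

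Cd209f and Cd209b kept a similar ratio in all 6 libraries. Per kb, Cd209f was 2.45, 2.06 and 2.75 times Cd209b in the Lyve-1- libraries and 2.41, 1.7 and 2.43 times in the Lyve-1+ libraries. The ratio stayed nearly level although the subset means differed 15.9-fold for Cd209f and 17-fold for Cd209b. By contrast, Cd209f was 26.1, 17.6 and 6.27 times Cd209g in Lyve-1- libraries and 5, 3.85 and 6.33 times in Lyve-1+ libraries. The ratio of Cd209f to Cd209d ran from 0.588 to 6.8 in Lyve-1- libraries and from 2.18 to 2.9 in Lyve-1+ libraries. Lyve-1- replicate 3 gave the lowest of these ratios in its subset for both Cd209g and Cd209d.

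Genes whose log2 CPM was most like that of a member over the 6 libraries were listed by Pearson r, as a description. These libraries fall into the subsets, so r over all 6 follows the difference between subsets, and with 13348 genes to search a high r is easily found. For Cd209f they were Apoe (r = 0.998), Cd209b (0.995) and Itm2b (0.995), and for Cd209b they were Itm2b (0.995), Cd209f (0.995) and Epb4.1l1 (0.992). For Cd209g they were Tcn2 (0.996), Hspa5 (0.995) and Efemp1 (0.991), and for Cd209d Gprc5c (0.998), Tmcc1 (0.994) and Fgf9 (0.993). Cd209f and Cd209b thus named each other and shared Itm2b, while no other member named a member. For Cd209a they were Vash1 (0.998), Cd276 (0.991) and Pou5f2 (0.984), for Cd209c Stradb (0.995), Ubxn6 (0.988) and Hspa14 (0.987), and for Cd209e Cpne8, 2700038G22Rik and Cthrc1 (0.996 each).

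Whether Cd209 levels differed with age was tested across both subsets, 10 weeks against 6 weeks. No member was called by edgeR at an adjusted p under 0.05 over all genes, beside 0.0225% of all genes tested (3 of 13348). The adjusted p was 0.236 for Cd209f and 0.559 for Cd209b, whose levels at 10 weeks were lower in both subsets. Cd209f was at 55.6 CPM at 6 weeks and a mean of 19.6 at 10 weeks in Lyve-1- libraries, and at 807 and 349.1 in Lyve-1+ libraries. Its log2 fold change was -1.36 ± 0.29 (SE). Cd209b was at 24.1 and 8.75 CPM in Lyve-1- libraries and at 356.2 and 176.5 in Lyve-1+ libraries, a log2 fold change of -1.24 ± 0.32 (SE). Cd209f and Cd209b were the 2 members at an unadjusted edgeR p under 0.05, which 3.33% of all genes reached, and the 2 members whose 6-week library was the highest in both subsets, as in 11% of all genes.

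DESeq2 called 1 member for age, Cd209f, at an adjusted p of 0.0274, beside 0.225% of all genes. Over the edgeR and DESeq2 alternatives its adjusted p ran from 0.00322 without Lyve-1+ replicate 3 to 0.339, and that of Cd209b from 0.13 to 1. The other members had log2 fold changes for age from -0.71 (Cd209g) to 1.19 (Cd209e, SE 3.29), with edgeR adjusted p = 1. Cd209g was at 292.8 CPM at 6 weeks and a mean of 123.4 at 10 weeks in Lyve-1+ libraries, but at 3.87 and 3.99 in Lyve-1- libraries. Cd209d was likewise higher at 6 weeks in Lyve-1+ libraries (140.7 and 67.5 CPM) and lower at 6 weeks in Lyve-1- libraries (3.78 and 10.04 CPM). Cd209a went the other way in both, at 80.8 and 147.5 CPM in Lyve-1+ and 208.4 and 148.9 CPM in Lyve-1- libraries. These 3 genes showed no difference with age that passed the test. As only replicate 1 was taken at 6 weeks, a difference with age cannot be told apart from one of those pools.

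Whether the difference between subsets changed with age was tested by the interaction of the 2 factors. No member passed in edgeR (smallest adjusted p = 0.976) or in DESeq2 (smallest adjusted p = 0.67), and edgeR and DESeq2 called 0.00749% and 0.352% of all genes. At an unadjusted edgeR p under 0.05 there were 0 members, beside 4.59% of all genes. Cd209d came nearest, with an interaction of -2.45 on the log2 scale and an unadjusted edgeR p of 0.0739. Its log2 ratio of Lyve-1+ to Lyve-1- was 5.22 at 6 weeks and 3.53 and 2.51 at 10 weeks. For Cd209b the ratios were 3.88, 4.07 and 4.58, and for Cd209f they were 3.86, 3.8 and 4.4.

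Genes next to the family on the chromosome were read in the same fit to see whether they rose as well. Of the 31 genes of the table within 500 kb of either end or between the members, 25 passed the filter and 0 were called by edgeR, beside 0.629% of all genes. DESeq2 called 0 too, and 1 gene was at an unadjusted edgeR p under 0.05. Log2 fold changes were above 0 in 14 genes and below 0 in 11, with a median of 0.03 against -0.01 for all genes. Summed over these genes, the level was 683.2 to 900.2 CPM in Lyve-1- libraries and 683.2 to 823.1 CPM in Lyve-1+ libraries. The largest fitted rise was in Gm14378 (2.56 ± 2.86 SE, edgeR adjusted p = 1), which had counts in 3 of 6 libraries. The largest fitted fall was in Pcp2, with 23, 24 and 15 counts in Lyve-1- libraries and 0 in each Lyve-1+ library (edgeR adjusted p = 0.559), and Pcp2 overlaps Pet100. Clec4g, the lectin gene beside Cd209a, was too low to be tested, with at most 27 counts in a library.

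**Figure D4:**
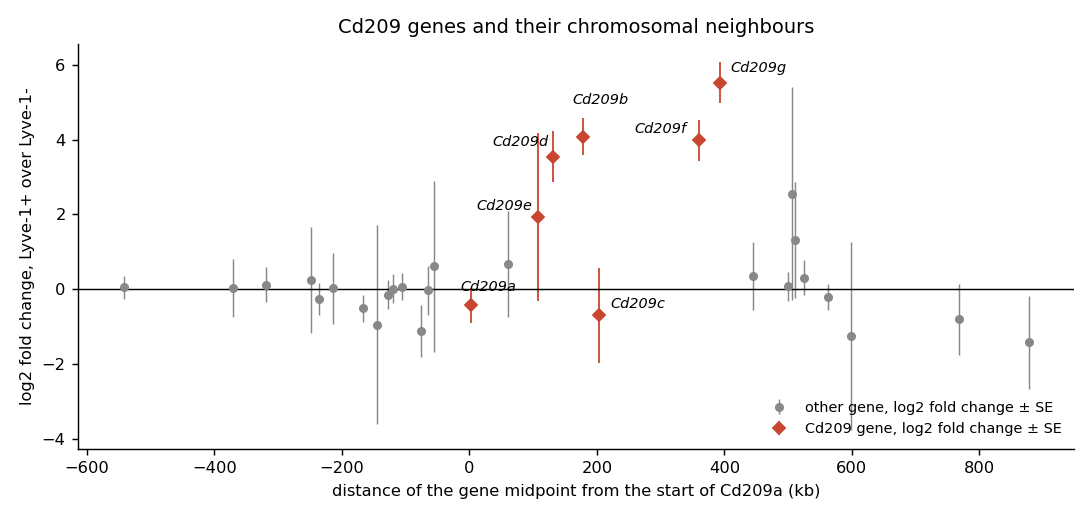
Log2 fold change of Lyve-1+ over Lyve-1- (± SE) for the Cd209 genes (red) and the other tested genes within 500 kb (grey), by distance of the gene's midpoint from the start of Cd209a in kb. Cd209d, Cd209b, Cd209f and Cd209g lie between 3.55 and 5.53, and the grey genes lie around 0 on either side; Pcp2, at 0 counts in Lyve-1+ libraries, is not drawn.

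Genes that carry signals of DC-SIGN lectins were read next. Of the 12 genes tested, 0 were called by edgeR, 3 were at an unadjusted p under 0.05 (1 higher, 2 lower) and DESeq2 called 2, Arhgef12 and Lsp1. Over all genes, 7.69% were at an unadjusted p under 0.05 and DESeq2 called 1.9%. Log2 fold changes were above 0 in 4 and below 0 in 8, with a median of -0.21. Lsp1, which encodes a protein that binds the tail of human DC-SIGN, was at 1100, 669 and 1050 CPM in Lyve-1- libraries and at 248, 348 and 577 CPM in Lyve-1+ libraries. Its lowest Lyve-1- level thus exceeded its highest Lyve-1+ level, as in 6.5% of all genes, with a log2 fold change of -1.27 ± 0.32 (SE, edgeR adjusted p = 0.114). Arhgef12 was at 106 ± 32.7 and 235 ± 23.5 CPM (SD, n = 3), a log2 fold change of 1.14 ± 0.30 (SE, edgeR adjusted p = 0.141). Syk, the kinase of several C-type lectins, was at 993 ± 112 and 818 ± 128 CPM (edgeR adjusted p = 1).

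Regulators of the IL-4 axis and of the macrophage lineage, which are known to act on Cd209 genes or on the cells that express them, showed no call in edgeR among 12 genes. At an unadjusted p under 0.05 there were 3, all higher, and DESeq2 called 1, Maf, beside 7.69% and 1.9% of all genes. The median log2 fold change was 0.09. Maf, a transcription factor of resident macrophages, was the largest rise, at 242, 233 and 120 CPM in Lyve-1- libraries and 784, 361 and 304 CPM in Lyve-1+ libraries. The subsets did not overlap, with a log2 fold change of 1.28 ± 0.38 (SE, edgeR adjusted p = 0.233). Zbtb46, a factor of dendritic cells, was the largest fall (-1.06 ± 0.55 SE, edgeR adjusted p = 0.733). Stat6, which relays IL-4, was at 233 ± 46 and 243 ± 32.6 CPM (SD, n = 3).

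Among 12 tested genes for ligands and partners of DC-SIGN proteins, edgeR called 2, both higher in Lyve-1+ cells, beside 0.45% of all genes called higher. These were C1qa, a chain of the complement protein C1q that SIGNR1 binds, and C4b, complement component 4. C1qa was at 274, 234 and 144 CPM in Lyve-1- libraries and at 1030, 548 and 486 CPM in Lyve-1+ libraries, a log2 fold change of 1.66 ± 0.33 (SE, edgeR adjusted p = 0.0376). C4b, which can share reads with C4a, was at 84.9, 144 and 38 CPM and at 1220, 485 and 712 CPM, a log2 fold change of 3.17 ± 0.49 (SE, edgeR adjusted p = 0.0199). In both genes the 6-week Lyve-1+ library was the highest, as it was for Cd209b, Cd209d, Cd209e, Cd209f, Cd209g and Lyve1. The share of all genes with this order was not computed, so nothing is read from it. The edgeR adjusted p of C1qa was 0.185 with Lyve-1- replicate 3 left out and 0.102 with Lyve-1+ replicate 1 left out. That of C4b was 0.279 with Lyve-1- replicate 1 left out and 0.0773 with Lyve-1+ replicate 3 left out. In the 10-week libraries alone they were 0.187 and 0.335.

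DESeq2 called 5 genes of this list, C1qa, C1qb, C1qc, C4b and Mrc1, and 7 of the 12 were at an unadjusted edgeR p under 0.05, of which 6 were higher. Over all genes these shares were 1.9% and 7.69%. The median log2 fold change was 1.25. C1qb (1.30, edgeR adjusted p = 0.0689), C1qc (1.66, 0.0697) and Mrc1, the mannose receptor (1.21, 0.056), missed the edgeR threshold, although their subsets did not overlap. The largest fall was in Icam2, an adhesion ligand of DC-SIGN (-1.08 ± 1.20 SE, edgeR adjusted p = 1), and Icam1 was at 838 ± 122 and 567 ± 123 CPM (edgeR adjusted p = 0.588). This list was written with earlier results on complement genes and Mrc1 known, so its count is not independent of them.

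Markers of other cells were summed beside the Cd209 levels. The 12 markers of monocyte-derived and other dendritic cells, among which Cd209a is often counted, summed to 12170 to 13410 CPM in Lyve-1- libraries and 3594 to 7378 CPM in Lyve-1+ libraries. Of these, 10 had a log2 fold change below 0, and edgeR called 1 (6 at an unadjusted p under 0.05, 2 by DESeq2), H2-Ab1, an antigen presentation gene (-1.45, adjusted p = 0.0466), beside 0.18% of all genes called lower. Its adjusted p was 0.0512 with Lyve-1- replicate 1 left out, 0.161 with Lyve-1- replicate 3 left out and 0.0509 with Lyve-1+ replicate 1 left out. It was 0.207 in the 10-week libraries alone and 0.0505 with DESeq2 size factors in edgeR. The study had already named H2-Ab1 and Cd74 as lower in Lyve-1+ cells from these same libraries, so the call is not independent of that result. The sum is mostly Cd74 (8910 ± 463 and 3780 ± 1560 CPM) and H2-Ab1 (2130 ± 222 and 781 ± 334 CPM; SD, n = 3). Like Cd209a, 7 of the 12 markers overlapped between subsets (Ccr2, Flt3, Mgl2, Itgax, Zbtb46, Cd24a and Dpp4). The rest (Ciita, H2-Ab1, Cd74, Ccr7 and Xcr1) did not overlap and were lower in Lyve-1+ libraries, a pattern found in 6.5% of all genes. Macrophage markers (10 genes) summed to 9733 to 13720 CPM in Lyve-1- and 11210 to 13440 CPM in Lyve-1+ libraries, with 0 called by edgeR, 4 at an unadjusted p under 0.05 and 1 by DESeq2. Beside the dendritic cell and macrophage counts, 7.69% of all genes were at an unadjusted edgeR p under 0.05 and DESeq2 called 1.9%.

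The 8 fibroblast markers summed to 264.9 to 363.5 CPM in Lyve-1- libraries and to 564.6, 499.3 and 1461 CPM in Lyve-1+ replicates 1, 2 and 3. All 8 had a log2 fold change above 0 (median 1.46), 0 were called by edgeR, 4 were at an unadjusted p under 0.05 and DESeq2 called 4. Among all genes, 7.69% were at such an unadjusted edgeR p and DESeq2 called 1.9%. Fibroblast markers were thus higher in the libraries where Cd209b, Cd209d, Cd209f and Cd209g were high, and their part in those levels was not tested. With Lyve-1+ replicate 3 left out, log2 fold changes were 4.17 for Cd209b, 3.51 for Cd209d, 4.03 for Cd209f and 5.70 for Cd209g. Lymphatic endothelium, which also carries Lyve-1, gave 85.7 to 117.6 CPM and 88.3 to 185.5 CPM over 9 markers, with Ccl21a at 0 in all 6 libraries, 0 called by edgeR or DESeq2 and 0 at an unadjusted p under 0.05. That sum was mostly Pecam1 (means of 34.7 CPM in Lyve-1- and 49.4 in Lyve-1+ libraries) and Cdh5 (28 and 40.6 CPM). Pdpn was at 15.4 and 17.4 CPM, and the others, Prox1 among them, had a mean of at most 7.58 CPM in either subset. Neutrophil markers summed to 51.9 to 96.8 CPM and 82.7 to 434.7 CPM, T cell markers to 152.1 to 210.4 and 56.8 to 208.2 CPM, B cell markers to 3.03 to 33.97 and 10.9 to 87.2 CPM, and mammary epithelial markers to 40.3 to 278.4 and 51.5 to 90.7 CPM. None of these 4 lists held a gene called by edgeR, 4 of their genes were at an unadjusted p under 0.05 and DESeq2 called 1 (S100a9), and their part in the Cd209 levels was not tested.

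Values of the 4 higher members without the libraries that had counts at many olfactory receptor genes are given as sizes only, since groups that do not overlap fix the direction. With Lyve-1- replicate 3 left out, log2 fold changes were 3.82 for Cd209b and 3.77 for Cd209f. With Lyve-1+ replicate 1 left out they were 3.68 for Cd209b, 3.11 for Cd209d, 3.48 for Cd209f and 5.00 for Cd209g, and with Lyve-1+ replicate 2 left out they were 4.28, 3.90, 4.28 and 5.74 in the same order. With the olfactory receptor density subtracted from all libraries they were 4.10, 3.51, 3.98 and 5.68. In the 10-week libraries alone the log2 fold changes were 4.32 for Cd209b, 2.77 for Cd209d, 4.15 for Cd209f and 4.98 for Cd209g, and Cd209a was at -0.00.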

How the data were processed

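Sorted CD45+CD11b+F4/80+ mammary macrophages gave 3 Lyve-1+ and 3 Lyve-1- libraries (SMARTer stranded total RNA kit). Paired reads of 50 bp were mapped to mm10 by the authors (HISAT2 2.0.2), who deposited raw counts per gene symbol from featureCounts 1.5.0. The strand setting and the handling of reads with several matches are not given in the sources used here, and an outlier library that they left out was not analysed here. The members, gene lists and motifs were chosen with earlier results of these data known.

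Counts were tested in R 4.3.3 with edgeR 4.0.16 (filterByExpr by subset, TMM, robust quasi-likelihood F test, Benjamini-Hochberg adjustment over 13348 genes, called at adjusted p under 0.05). The subset was the only term, except that age (10 against 6 weeks) was fitted with the subset and then with their interaction. DESeq2 1.42.0, other scalings, other filters, the 10-week libraries alone, a replicate block, an age term, subtraction of the olfactory receptor density, the study's thresholds and each library left out were alternatives. The standard error is the log2 fold change over the square root of F, and the tests were tried on simulated data. Log2 CPM for Pearson r used a prior count of 2.

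The genes named were all members, the 3 genes most like each member by r, Lyve1, and, of neighbours and lists, the genes called and the largest rise and fall. Any other gene was picked with its values in view. Exon lengths, each over all annotated exons of a gene, and positions came from GENCODE M21. Of 24061 symbols, 22749 matched it directly and 916 by a synonym. Limits at 0 counts rest on 3 counts and cover counting error only. The libraries are pools of 4 mice, and the p-values measure the spread between these pools.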

Additional observations from a re-analysis of the deposited data

How the results depend on the processing

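Over the alternatives run, the log2 fold change between subsets ran from 3.68 to 4.74 for Cd209b, 2.77 to 4.66 for Cd209d, 3.48 to 4.67 for Cd209f, 4.98 to 5.96 for Cd209g, -1.001 to -0.00 for Cd209a, -1.33 to -0.18 for Cd209c and 1.10 to 9.48 for Cd209e, where the highest value was fitted against Lyve-1- libraries at 0 and is no bound. Of all genes, 84 were called for the subset, against 254 with DESeq2, 289 with no filter, 270 with the replicate block, 130 with age as a covariate, 39 in the 10-week libraries alone, 15 at the study's thresholds and 19 (without Lyve-1- replicate 3) to 153 (without Lyve-1+ replicate 2) with each library left out. Over the genes tested, the deviations of same-numbered libraries from their subset means had r = -0.046, -0.002 and -0.147. These values cannot show whether the libraries of a number came from the same mice, which the labels do not give. The numbers do match in age, since replicate 1 was the 6-week pool in both subsets. For the 2 list genes called, the counts were 8 with DESeq2, 8 with no filter, 5 at 10 counts in every library, 7 with the replicate block, 5 with age as a covariate, 0 in the 10-week libraries alone, 0 at the study's thresholds and 1 to 6 with a library left out. The replicate block put C4b at an adjusted p of 0.0552. The count of neighbours called was 0 in every alternative run.

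For age, 3 genes were called, against 30 with DESeq2, 5 with total library size, 19 with no filter, 8 at 10 counts in every library and 2 to 35 with a 10-week library left out. For subset by age, 1 gene was called, against 47 with DESeq2, 0 with total library size, 19 with no filter and, with a 10-week library left out, 10 to 181. The age value of Cd209f passed with DESeq2, with no filter (adjusted p = 0.02), with Lyve-1- replicate 2 left out (0.0387) and with Lyve-1+ replicate 3 left out (0.00322). The age value of Cd209a turned from 0.14 to -0.25 (Lyve-1- replicate 3 left out) and -0.24 (Lyve-1+ replicate 3 left out), within a range of -0.25 to 0.55 with a 10-week library left out. That of Cd209d turned from -0.05 to 0.0055 with DESeq2, 0.0059 with total library size, 0.085 (Lyve-1- replicate 2 left out) and 0.47 (Lyve-1+ replicate 2 left out), within -0.70 to 0.47. That of Cd209e turned from 1.19 to -0.61 without Lyve-1- replicate 3, within -0.61 to 3.04. The causes were not tested. Depth limits Cd209c and Cd209e most, whose highest counts in a library were 159 and 121.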
